A study of Mus musculus with 6 samples.

Results

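Collagens are the 42 mouse genes whose symbol on the array is Col, a number, the letter a and a number. They were chosen by name from the 18193 genes that had a probe set assigned to a single gene, and the brightest such probe set by mean signal over the 6 arrays stood for each gene. By class, 11 were fibrillar, 8 belonged to the basement membrane and 23 to other classes. Col6a6 and Col28a1, which the RefSeq gene table also lists, had no probe set of a single symbol. The arrays measured RNA from heart ventricle of 3 mice with wild-type Trex1 (Trex1 WT) and 3 with Trex1 knocked out (Trex1 KO), and all 6 mice, the controls included, also lacked Rag2. Trex1 degrades DNA in the cytosol, and without Rag2 no mature T or B lymphocytes form. Each littermate pair, A, B and C, held 1 mouse of either genotype, and each mouse had 1 array. The sources used here give neither strain nor age nor how the alleles were made, and the 3 mice of a genotype are separate animals. The comparison asks which transcripts of the heart differ when Trex1 is missing.

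A collagen molecule is a triple helix of chains built on repeats that begin with glycine, and the chains of a trimer can be products of different genes. Fibrillar collagens are cut outside the cell and assemble into crosslinked fibrils. In the heart, fibroblasts make most of the fibrillar type I and type III collagen of the interstitium, where more of it accumulates in fibrosis. Type IV collagen forms the sheet of the basement membrane around cardiomyocytes and vessels, and other collagens bind fibrils, anchor membranes or span the cell surface.

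The probe set shared by Trex1 and its neighbour Atrip had signals from 340.1 to 887 in Trex1 WT and from 9.45 to 34.2 in Trex1 KO. Whether it lies in the deleted part is not known. Rag2, knocked out in all 6 mice by their labels, had signals of 62.3, 83.7 and 8.43 in Trex1 WT and 91.3, 82.1 and 55.3 in Trex1 KO, around the highest Bacillus control value of 69.8, with 3 arrays above it. All 8 cardiomyocyte markers lay above the highest Bacillus control value on all 6 arrays, as did 2 of 5 atrial markers (Nppa and Myl4) and 2 of 6 skeletal muscle markers (Mylpf, from 88.2 to 184, and Tnni2, from 92.4 to 186). Myl7, the atrial light chain, lay above it on 4 arrays, and Sln, Bmp10, Actn3, Myh1, Myh4 and Tnnt3 on none. Between the groups, the Actb 3' to 5' ratio ran from 1.80 to 2.29 in Trex1 WT and from 1.60 to 1.68 in Trex1 KO, without overlap (exact permutation p = 0.1, two-sided, the smallest that 3 against 3 can give). The 18S signal was highest in Trex1 WT A and B. The Actb ratio was added as a covariate in an alternative fit. Because its ranges do not overlap between the genotypes, that fit separates ratio and genotype poorly. The part of the 18S signal in the collagen values was not tested. Among all 12808 genes tested, 40 were higher (0.312%) and 5 lower (0.039%) in Trex1 KO at a limma Benjamini-Hochberg adjusted p under 0.05.

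The promoters of Col1a2 and Col3a1 are shown because these genes encode chains of the main fibrillar collagens of heart, so that their values below can be read beside the letters next to their starts. Each line gives the 250 bases before the annotated start, 5' to 3' on the plus strand, from RefSeq (GRCm38.p6), at chr6:4505368-4505617 for Col1a2 and chr1:45311288-45311537 for Col3a1. Capitals mark matches to CCAAT, to GGGCGG (a GC box) or to TATAAA on either strand.
Col1a2: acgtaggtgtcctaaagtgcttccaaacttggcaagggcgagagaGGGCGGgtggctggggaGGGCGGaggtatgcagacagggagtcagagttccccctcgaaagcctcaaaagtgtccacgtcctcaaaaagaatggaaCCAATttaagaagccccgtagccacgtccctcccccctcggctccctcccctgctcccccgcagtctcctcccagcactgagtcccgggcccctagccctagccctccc
Col3a1: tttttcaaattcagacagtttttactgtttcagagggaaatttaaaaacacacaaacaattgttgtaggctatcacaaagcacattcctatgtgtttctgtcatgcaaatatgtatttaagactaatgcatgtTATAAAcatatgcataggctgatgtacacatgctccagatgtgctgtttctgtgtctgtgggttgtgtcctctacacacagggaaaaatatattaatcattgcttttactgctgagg

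In Col1a2 the matches were 2 GC boxes and 1 CCAAT, and in Col3a1 1 TATAAA. Neither stretch held the core of the interferon-stimulated response element, searched as GAAA, any 2 bases and GAAA on both strands. The RefSeq table, with windows of 300 bases that run past the start, held 36 windows for 33 of the 42 collagens. Of these, 0 held that core, against 3.44% of all 32851 windows. A second interferon element, searched as TTCNNNGAA, was present in 1 of the 36, that of Col6a5, against 8.3% of all. GGGCGG was present in 22 collagen windows (35.7% of all windows), CCAAT in 13 (37.4%) and TATAAA in 5 (13.6%). The motifs do not overlap in the printed stretches. A match describes letters and no binding, and windows without one say nothing of the factor.

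No collagen gene passed the test in either direction. Of the 42 genes, 27 were bright enough to test, and 0 of 27 were higher (0.312% of all genes) and 0 of 27 lower (0.039%) when p-values from limma were adjusted over 27022 probe sets (Benjamini-Hochberg, threshold 0.05). At an unadjusted limma p under 0.05, 0 were higher (3.06% of all genes) and 1, Col4a5, was lower (2.3%). With littermate pairs as a block, again 0 passed after adjustment in either direction (0.531% higher and 0.0937% lower among all genes). At an unadjusted limma p under 0.05 in that fit, 4 of 27 were higher (14.8%, beside 4.46% of all genes). They were Col1a1, Col1a2, Col4a1 and Col4a4, with unadjusted limma p of 0.032, 0.019, 0.018 and 0.044 with the block. Col4a5 was lower (1 of 27, 3.7%, beside 3.89%), with an unadjusted limma p of 0.0076. Over the 82 probe sets of collagens, 44 were tested and 0 passed, with a lowest adjusted p of 0.852 in limma and 0.385 with the block. Each mouse was hybridised once, so the spread is that among 6 animals. In the p-values limma draws the variance of each probe set towards that of probe sets of like signal.

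The differences were of both signs, and the 2 largest were those of the dim genes Col12a1 and Col23a1. Log2 differences, Trex1 KO minus Trex1 WT on the log2(signal + 16) scale, ran from -0.40 for Col4a5 to 0.70 for Col12a1. The median over the 27 was 0.10, beside -0.02 over all 12808 genes, with 18 above and 9 below 0. It was 0.10, -0.09 and 0.08 for pair A, pair B and pair C, and -0.014 without Trex1 WT A. For 23 of the 27 the 95% interval of the difference lay within 2-fold either way (85.8% of all genes), and for 13 within 1.5-fold (58.5%). All 3 Trex1 KO arrays lay above all 3 Trex1 WT arrays for 0 of the 27 tested collagens (5.06% of all tested genes) and below them for 2, Col15a1 and Col4a3 (5.83%). The sign was positive in all 3 littermate pairs for 5 (13.1% of all genes) and negative for 4 (17.8%).

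**Figure D1:**
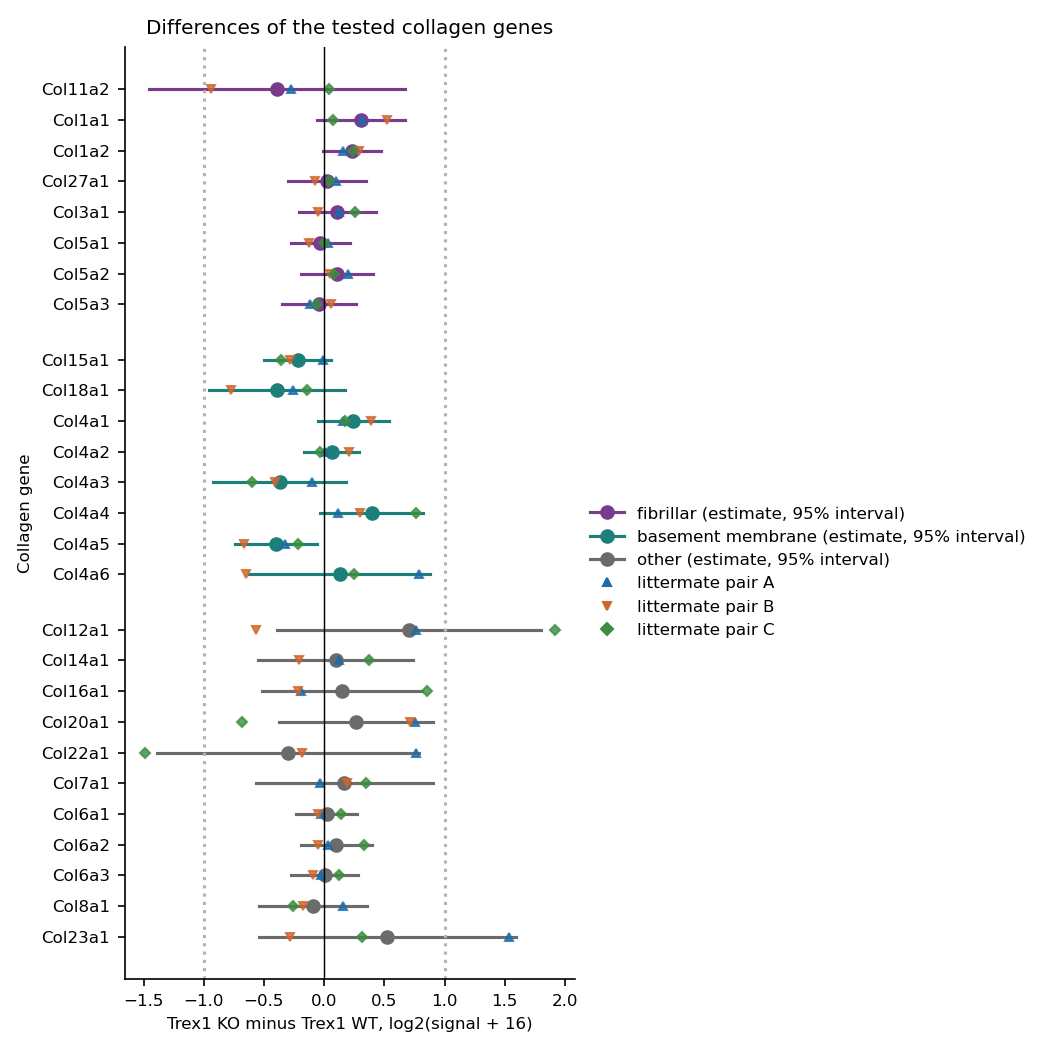
Log2 difference of each of the 27 tested collagen genes (horizontal axis, Trex1 KO minus Trex1 WT on log2(signal + 16)), as the limma estimate with its 95% interval, with the difference within each littermate pair as small symbols and dotted lines at 2-fold. The interval of Col4a5 alone lies off 0 (p not adjusted over genes), and the intervals of Col11a2, Col12a1, Col22a1 and Col23a1 reach past 2-fold.

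Fibrillar collagens had 8 tested members of 11, with differences from -0.39 to 0.30, a median of 0.06 and 0 calls. The type I chains were the highest of them. Type I collagen, the main tensile fibril, is a trimer of Col1a1 and Col1a2 chains. Signals of Col1a1 were 704, 714 and 1022 for Trex1 WT mice of pairs A, B and C, against 880.4, 1032 and 1077 for their Trex1 KO littermates. The difference was 0.30 (SE 0.16, 95% interval -0.06 to 0.67, limma adjusted p = 0.955). Within pairs it was 0.32, 0.52 and 0.07 in the order of the pairs. The groups overlapped, since Trex1 WT C lay above Trex1 KO A. With the Actb ratio in the fit the Col1a1 difference was -0.14, with the mean of its probe sets 0.01, and without Trex1 WT C it was 0.48, none past the threshold. Its second tested probe set pointed the other way, with signals of 271, 266 and 262 for Trex1 WT mice of pairs A, B and C, against 202, 225 and 223 for their Trex1 KO littermates, which did not overlap, and a difference of -0.28 (SE 0.17, 95% interval -0.65 to 0.09, limma adjusted p = 0.955).

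Col1a2, the partner chain, had signals of 3374, 3789.7 and 3413 for Trex1 WT mice of pairs A, B and C, against 3769.6, 4632 and 4043 for their Trex1 KO littermates. Its difference was 0.23 (SE 0.11, 95% interval -0.01 to 0.47, limma adjusted p = 0.927), and each Trex1 KO mouse lay above its own littermate (0.16, 0.29 and 0.24 in the order of the pairs). Trex1 WT B nevertheless exceeded Trex1 KO A, so the groups overlapped. The interval allows a Trex1 KO level between 0.992 and 1.39 times that of Trex1 WT. With the mean of all its probe sets the difference was 0.03, and without Trex1 KO B 0.15. A second tested probe set had a difference of 0.10 (limma adjusted p = 0.971).

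Type III collagen, a homotrimer of Col3a1 that mixes with type I in the myocardial fibrils, differed less. Signals of Col3a1 were 7227, 9888 and 9016 for Trex1 WT mice of pairs A, B and C, against 7886, 9550.0 and 10770.3 for their Trex1 KO littermates. Pair A was low in both genotypes, and the groups overlapped over most of their range. The difference was 0.11 (SE 0.15, 95% interval -0.21 to 0.43, limma adjusted p = 0.97), and it was -0.02 without Trex1 WT A. Its dimmer probe set had 0.14 (limma adjusted p = 0.965).

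Type V chains set the diameter of type I fibrils, and 0 of 3 passed the test. Col5a1 had signals of 1172, 1382 and 1253 for Trex1 WT mice of pairs A, B and C, against 1200.4, 1267 and 1248 for their Trex1 KO littermates, with a difference of -0.03 (SE 0.11, 95% interval -0.28 to 0.22, limma adjusted p = 0.989). For Col5a2 the signals were 1122, 1364 and 1076 for Trex1 WT mice of pairs A, B and C, against 1287, 1410.2 and 1137 for their Trex1 KO littermates, with a difference of 0.11 (SE 0.13, 95% interval -0.19 to 0.41, limma adjusted p = 0.968) and a positive sign in all 3 pairs. In Col5a3 the means were 473 ± 27.0 (SD, n = 3) in Trex1 WT against 459 ± 30.1 (SD, n = 3) in Trex1 KO, a difference of -0.04 (limma adjusted p = 0.988). For Col5a1 the limma 95% interval allows a Trex1 KO level between 0.824 and 1.16 times that of Trex1 WT.

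The remaining fibrillar genes are those of cartilage or of minor fibrils. Col27a1 had means of 346 ± 16.9 (SD, n = 3) in Trex1 WT against 351 ± 9.49 (SD, n = 3) in Trex1 KO and a difference of 0.02 (limma adjusted p = 0.996). Col11a2, a cartilage chain, had the lowest fibrillar difference, but its signals of 80.0, 43.3 and 83.7 for Trex1 WT mice of pairs A, B and C, against 63.5, 15 and 86.3 for their Trex1 KO littermates lay around the highest control value of 69.8. The difference was -0.39 (SE 0.48, 95% interval -1.45 to 0.67, limma adjusted p = 0.967), and the sign turned to 0.12 without Trex1 KO B. Col2a1, the main cartilage collagen, and Col11a1 and Col24a1 fell below the filter on dim probe sets and lay under that control value on all 6 arrays.

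**Figure D2:**
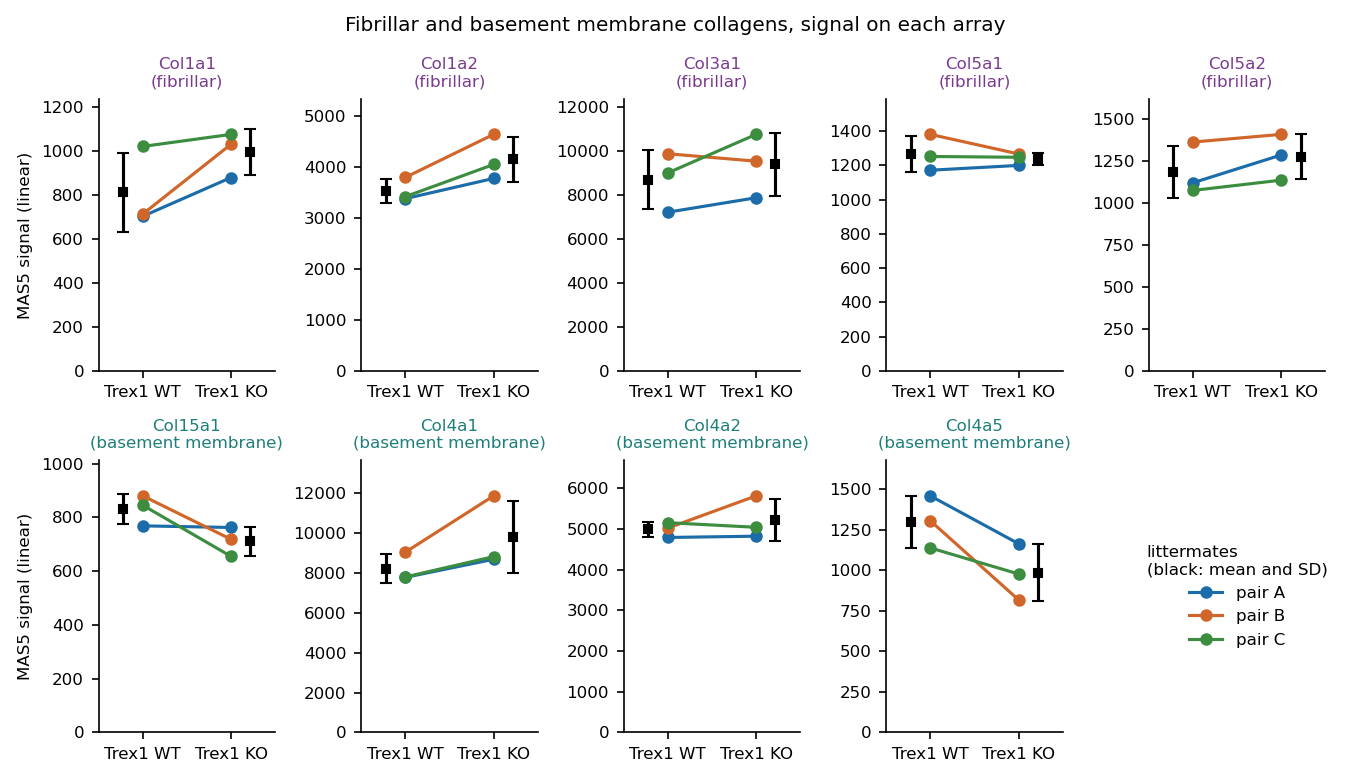
MAS5 signal (linear vertical axes that start at 0) of the 5 fibrillar and 4 basement membrane collagens with a mean signal of at least 500, on each array. Lines join littermates and black squares with bars give mean and SD of 3 mice. In all 3 pairs Col1a1, Col1a2, Col5a2 and Col4a1 are higher and Col15a1 and Col4a5 lower in Trex1 KO (0 passed the test), and the groups overlap in all panels except that of Col15a1.

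In the basement membrane class all 8 genes were tested, 0 passed, and the differences spread on both sides of 0 from -0.40 to 0.39 with a median of -0.08. Most basement membranes hold trimers of Col4a1 and Col4a2, whose genes lie head to head. Col4a1 had signals of 7786, 9049.8 and 7806 for Trex1 WT mice of pairs A, B and C, against 8694, 11879 and 8828 for their Trex1 KO littermates. Each Trex1 KO mouse lay above its littermate, yet Trex1 WT B exceeded Trex1 KO A and C. The difference was 0.24 (SE 0.13, 95% interval -0.05 to 0.54, limma adjusted p = 0.955), the second probe set gave 0.26, and without Trex1 KO B it was 0.10. Signals of Col4a2 were 4791, 5021 and 5154 for Trex1 WT mice of pairs A, B and C, against 4822, 5812 and 5040.4 for their Trex1 KO littermates, of which Trex1 KO B alone lay above the Trex1 WT range. Its difference was 0.06 (SE 0.10, 95% interval -0.16 to 0.29, limma adjusted p = 0.972), and -0.02 without Trex1 KO B and -0.01 with the Actb ratio in the fit.

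The chains Col4a3, Col4a4 and Col4a5 form the other type IV trimer, best known from the kidney, and their differences were of unlike sign. Col4a5 had signals of 1459.6, 1306 and 1138 for Trex1 WT mice of pairs A, B and C, against 1164, 818 and 978 for their Trex1 KO littermates. Each Trex1 KO mouse lay below its littermate (-0.32, -0.66 and -0.22 in the order of the pairs), while Trex1 KO A stayed above Trex1 WT C. The difference was -0.40 (SE 0.15, 95% interval -0.74 to -0.06, limma adjusted p = 0.852). Its unadjusted p of 0.0255 from limma was the smallest among the collagens. It was -0.16 with the Actb ratio in the fit and -0.27 without pair B, and the dimmer probe set gave -0.12. For Col4a4 the signals were 328, 392.1 and 261 for Trex1 WT mice of pairs A, B and C, against 357, 487 and 455 for their Trex1 KO littermates, higher in Trex1 KO in all 3 pairs (0.11, 0.30 and 0.77 in the order of the pairs). The difference was 0.39 (SE 0.19, 95% interval -0.03 to 0.82, limma adjusted p = 0.943). It came to 0.82 in the fit that held the Actb ratio and to 0.25 when Trex1 WT C was left out, and its other tested probe sets gave -0.0034 and 0.14.

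Col4a3 showed how far probe sets of a gene can differ at such signals. On its brightest probe set the means were 134 ± 8.60 (SD, n = 3) in Trex1 WT against 101 ± 22.3 (SD, n = 3) in Trex1 KO, without overlap, and the difference was -0.37 (limma adjusted p = 0.955), or -0.22 without Trex1 KO C. The second had means of 60.6 ± 25.2 (SD, n = 3) in Trex1 WT against 119 ± 28.0 (SD, n = 3) in Trex1 KO, without overlap the other way, and a difference of 0.85 (limma adjusted p = 0.87). Col4a6, which pairs with Col4a5 in a further trimer, had means of 84.6 ± 14 (SD, n = 3) in Trex1 WT against 98.7 ± 40.7 (SD, n = 3) in Trex1 KO and a difference of 0.13, and 0.79, -0.65 and 0.24 in the order of the pairs.

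Col15a1 and Col18a1 belong to the multiplexins, which sit at the outer face of basement membranes, and the C-terminal fragment of Col18a1 is endostatin. Signals of Col15a1 were 769, 880.3 and 845 for Trex1 WT mice of pairs A, B and C, against 763, 719 and 655 for their Trex1 KO littermates. All Trex1 KO values lay below all Trex1 WT values, by a margin in pair A of only -0.01 between littermates. The difference was -0.22 (SE 0.12, 95% interval -0.50 to 0.06, limma adjusted p = 0.955). Col18a1 had signals of 173, 195 and 229.9 for Trex1 WT mice of pairs A, B and C, against 142, 108 and 207 for their Trex1 KO littermates, lower in Trex1 KO in all 3 pairs with overlapping groups. The difference was -0.39 (SE 0.25, 95% interval -0.95 to 0.18, limma adjusted p = 0.955), whereas its dimmer probe set gave 0.34 and the mean of its probe sets -0.03. Without Trex1 KO B the difference was -0.19, and without Trex1 KO C it was -0.61.

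Among the other classes, 11 of 23 genes were tested and 0 passed, with a median difference of 0.10. Type VI collagen makes beaded filaments next to cell surfaces from the chains Col6a1, Col6a2 and Col6a3, and its 3 tested differences lay at 0.10 or less. Col6a2 had signals of 2168, 2642 and 2396 for Trex1 WT mice of pairs A, B and C, against 2213, 2547 and 3010.3 for their Trex1 KO littermates, and a difference of 0.10 (SE 0.13, 95% interval -0.19 to 0.40, limma adjusted p = 0.97). Col6a1 had means of 2462 ± 206 (SD, n = 3) in Trex1 WT against 2500.3 ± 240.2 (SD, n = 3) in Trex1 KO and a difference of 0.02. In Col6a3 the means were 1591 ± 144 (SD, n = 3) in Trex1 WT against 1597 ± 183 (SD, n = 3) in Trex1 KO and the difference 0.0029 (limma adjusted p = 0.993 and 1). The 95% intervals of Col6a1, Col6a2 and Col6a3 together ran from -0.27 to 0.40.

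Fibril-associated collagens with interrupted helices lie on the surface of fibrils, and 5 of 9 were tested. Col14a1 had signals of 542, 631 and 924 for Trex1 WT mice of pairs A, B and C, against 592, 544 and 1199 for their Trex1 KO littermates. Both mice of pair C were the highest of their genotype, so the spread between pairs exceeded the difference of 0.10 (SE 0.29, 95% interval -0.55 to 0.74, limma adjusted p = 0.987). Col12a1, its relative in tension-bearing tissue, had the largest positive difference of all collagens but signals of 83.8, 96.5 and 17.4 for Trex1 WT mice of pairs A, B and C, against 153, 59.8 and 110.1 for their Trex1 KO littermates, around the control value. Trex1 WT C was far below the rest. The difference was 0.70 (SE 0.49, 95% interval -0.39 to 1.80, limma adjusted p = 0.955) but 0.15 without that array and 2.33 with the Actb ratio in the fit. Signals of Col16a1, Col20a1 and Col22a1 gave differences of 0.15, 0.26 and -0.30, with pair C opposite in sign to pair A in each.

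Col8a1, a short-chain collagen of vessel walls and endothelium, had signals of 1037, 1114 and 802 for Trex1 WT mice of pairs A, B and C, against 1160.1, 983 and 669 for their Trex1 KO littermates. The groups overlapped throughout, and the difference was -0.09 (SE 0.20, 95% interval -0.54 to 0.36, limma adjusted p = 0.979). Col7a1, the anchoring fibril of skin, lies close to Trex1, with 3 protein-coding genes between them in the RefSeq table of GRCm38.p6. Its signals were 61.6, 108 and 87.6 for Trex1 WT mice of pairs A, B and C, against 59.9, 125 and 116 for their Trex1 KO littermates, with 4 of 6 arrays above the control value, and the difference was 0.17 (SE 0.33, 95% interval -0.57 to 0.90, limma adjusted p = 0.977). Col23a1, a transmembrane collagen, had signals of 16.4, 117 and 79.2 for Trex1 WT mice of pairs A, B and C, against 77.9, 93.5 and 102 for their Trex1 KO littermates, of which Trex1 WT A alone was far below the rest. Its difference of 0.52 (SE 0.48, 95% interval -0.55 to 1.59, limma adjusted p = 0.956) turned to -0.08 without that array. Col26a1, of no fixed class, was not tested and had signals of 7.31, 64.2 and 33.4 for Trex1 WT mice of pairs A, B and C, against 11.2, 6.04 and 36.3 for their Trex1 KO littermates.

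The 15 collagens that were not tested had mean signals from 6.04 to 49.8. Of these, 10 exceeded the highest Bacillus control value of 69.8 on no array, and the others on at most 2. They included the cartilage genes Col2a1, Col9a1, Col9a2, Col9a3, Col10a1 and Col11a1. Among them the arrays of Col8a2 alone were all higher in Trex1 KO than in Trex1 WT (48.3, 60.2 and 74.1 against 28.5, 41.1 and 39.1), and those of Col6a5 alone all lower, with no test of either. Beside them, 5.06% of all tested genes were separated upward and 5.83% downward. Col8a2 lay above the control value on 1 array and Col6a5 on none. A change at these signals could go unseen. Above that value on all 6 arrays were 21 of the 42, among them 7 of the 11 fibrillar and 7 of the 8 basement membrane genes.

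**Figure D3:**
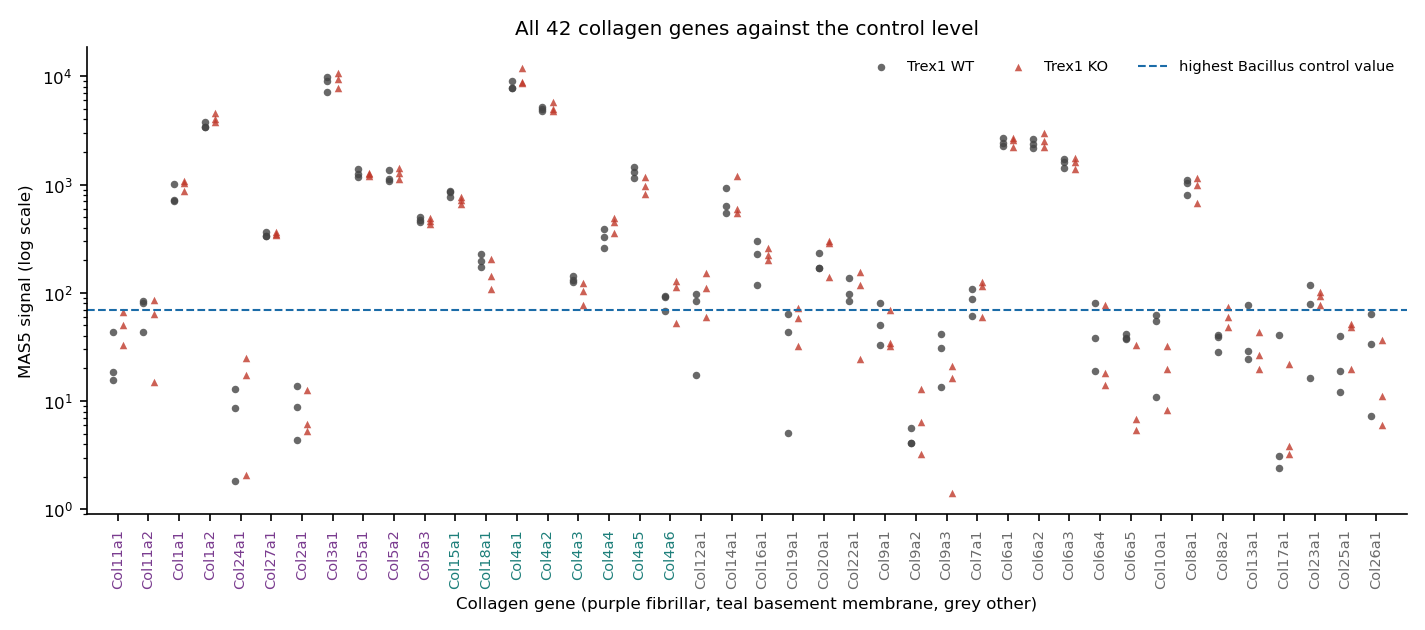
MAS5 signal (log vertical axis) of the brightest probe set of each of the 42 collagen genes on 3 Trex1 WT and 3 Trex1 KO arrays, beside the highest value of 27 Bacillus control probe sets (69.8, dashed). The 21 genes with all 6 points above that line include most fibrillar and basement membrane members, and levels cannot be compared between genes because each probe set has its own response.

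Genes that fold, cut and crosslink collagen did not pass either. Of 27 such genes on the array 25 were tested, with 0 higher and 0 lower in limma (1 of 25 and 0 at an unadjusted p under 0.05, beside 3.06% and 2.3% of all genes) and a median difference of 0.04. The crosslinking oxidases Loxl3 and Loxl4 and the prolyl hydroxylase subunit P4ha1 had the smallest p, with differences of 0.41, 0.68 and 0.27 (limma adjusted p = 0.901, 0.955 and 0.955). Loxl3 had means of 247 ± 7.46 (SD, n = 3) in Trex1 WT against 336 ± 63.1 (SD, n = 3) in Trex1 KO. The collagen chaperone Serpinh1 and the crosslinking enzyme Lox, named after their values were seen, had 0.08 and 0.03.

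Collagen receptors, fibril-binding proteoglycans and basement membrane partners likewise had 0 calls, beside 0.312% higher and 0.039% lower among all genes. At an unadjusted limma p under 0.05, 0 of 9 receptors, 1 of 9 proteoglycans and 1 of 15 partners were higher (3.06% of all genes). In each of these lists 0 were lower (2.3%). Among 9 tested receptors the median was -0.03. The receptor tyrosine kinase Ddr2, the inhibitory receptor Lair1 and the platelet receptor Gp6 had -0.25, 0.36 and 0.52. Gp6 was dim, with signals above the highest Bacillus control value on 4 of 6 arrays. Among 9 proteoglycans, which coat fibrils, the median was 0.09. Biglycan (Bgn) had means of 4004 ± 634 (SD, n = 3) in Trex1 WT against 5059 ± 371 (SD, n = 3) in Trex1 KO, a difference of 0.34 (adjusted p of 0.796 from limma, or 0.276 in the blocked fit) and a positive sign in all 3 pairs. Decorin (Dcn) and Prelp had 0.16 and 0.16. Among 15 laminins, nidogens and other basement membrane partners the median was -0.07.

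Agrn, the heparan sulfate proteoglycan agrin, had the smallest p of all these lists. Its signals were 818, 638 and 737 for Trex1 WT mice of pairs A, B and C, against 1126, 1139 and 1017 for their Trex1 KO littermates, without overlap, and the difference was 0.58 (SE 0.13, 95% interval 0.29 to 0.87, limma adjusted p = 0.257). In the blocked fit the limma adjusted p was 0.127. The lowest limma adjusted p of all basement membrane partners, Agrn included, was 0.787 with the Actb ratio in the fit. With the mean of probe sets it was 0.926. Hspg2, the basement membrane proteoglycan perlecan, did not overlap in the opposite direction, with means of 1367 ± 98.0 (SD, n = 3) in Trex1 WT against 1148 ± 118 (SD, n = 3) in Trex1 KO and a difference of -0.25 (limma adjusted p = 0.934). The laminin chain Lama4 had -0.23.

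The pathway of transforming growth factor beta, which induces fibrillar collagen genes in fibroblasts, had 0 of 21 members past the threshold (2 higher, beside 3.06% of all genes, and 0 lower, beside 2.3%, at an unadjusted limma p under 0.05) and a median of -0.02. Tgfb3, a ligand, had means of 444 ± 9.13 (SD, n = 3) in Trex1 WT against 577 ± 47.9 (SD, n = 3) in Trex1 KO, without overlap, and a difference of 0.37 (limma adjusted p = 0.81). The receptor Tgfbr2 and the latency protein Ltbp2 had 0.32 and 0.49 (limma adjusted p = 0.891 and 0.955).

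**Figure D4:**
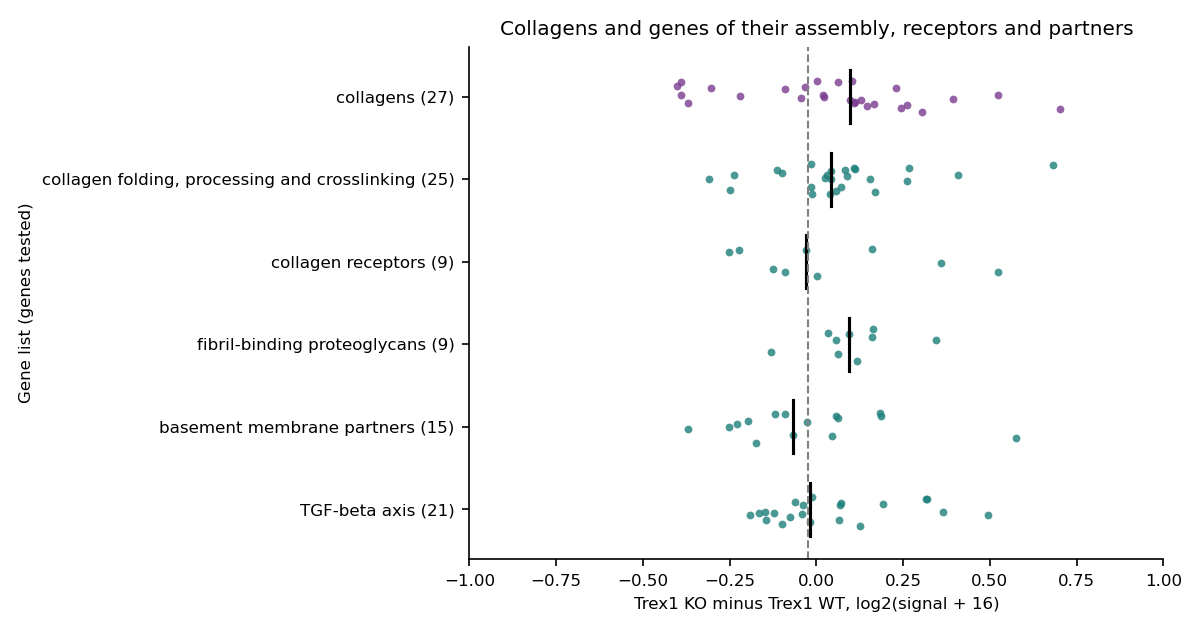
Log2 difference (horizontal axis, Trex1 KO minus Trex1 WT on log2(signal + 16)) of each tested gene in the collagen set and in 5 lists of genes that act with collagens; black bars are medians and the dashed line is the median of all 12808 genes. All 6 medians lie between -0.07 and 0.10, and 0 of these genes passed the test (0.312% of all genes higher and 0.039% lower).

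In bulk tissue, fewer cells of a type and less RNA per cell cannot be told apart. Beside the counts of calls below, 0.312% of all genes tested were called higher and 0.039% lower. The 10 fibroblast markers, of which Dcn and Lum are also in the proteoglycan list, had 0 calls, a median of -0.03 and summed signals from 72673 to 91122 in Trex1 WT and from 79711 to 84594 in Trex1 KO. All 10 lay above the control value on all 6 arrays. Such a sum is weighted to the brightest probe sets, here Gsn and Dcn (mean signals of 32986 and 21373). It does not measure the amount of a cell type. Pi16, a marker of adventitial fibroblasts, was the lowest, with signals of 638, 918 and 1329 for Trex1 WT mice of pairs A, B and C, against 527, 350.3 and 517 for their Trex1 KO littermates, without overlap, and a difference of -0.98 (limma adjusted p = 0.406). The 8 smooth muscle and pericyte markers had a median of -0.25 with 0 calls and sums from 38429 to 51533 in Trex1 WT and from 34155 to 41154 in Trex1 KO. The 8 endothelial markers had a median of -0.16, 0 calls and sums from 12060.4 to 17003 for the controls and from 11567 to 14296 for the knockouts. The 7 macrophage markers, all above the control value on all 6 arrays, had a median of 0.35, 0 calls and sums from 11506 to 16724 in Trex1 WT and from 13607 to 17575 in Trex1 KO. Of the 3 tested atrial markers, Nppa, the natriuretic peptide that strained ventricle also makes, had means of 16165 ± 4539.9 (SD, n = 3) in Trex1 WT against 31458 ± 3918 (SD, n = 3) in Trex1 KO, without overlap (limma adjusted p = 0.126, and 0.00886 with the block). Of 4 adipocyte genes 2 were tested, with 0 calls. Adipoq had a signal of 549 in Trex1 KO C and of at most 66.3 on the other 5 arrays. Car3 had 2753 in Trex1 KO C and at most 280 on the other 5. Cidec and Lep lay above the control value on no array. The part of these cell types in the collagen values was not tested.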

How the data were processed

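Total RNA of heart ventricle from 6 mice was labelled with biotin and hybridised, 1 array per mouse. Values are the authors' deposited linear intensity of 45101 probe sets. The submitters' processing notes name MAS5, without its version or settings. The 2% trimmed mean was 500.0 on every array, so no further normalisation was applied. Symbols came from the platform annotation, matched by Entrez identifier to RefSeq (34741 of 34945 single-symbol probe sets, 0 changed).

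Values were transformed to log2(signal + 16). Probe sets at or above the 40th percentile of mean log2 value (a signal of 53.8) were tested, 27022 in all, with limma 3.58.1 in R 4.3.3 (lmFit, eBayes with an intensity trend, 4 residual degrees of freedom, two-sided, Benjamini-Hochberg over all of them, threshold 0.05). Intervals are limma's 95% intervals, not adjusted over genes. Depth does not apply to arrays, and 3 mice a group limit the precision.

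The design text pairs littermates. The correlation of littermates' deviations from their group means was 0.151, 0.192 and 0.147 within pairs A, B and C (across probe sets, which are not replicates) and 0.0101 or less between other combinations. The pair was a block in an alternative fit.

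Every collagen could be named. Signals of each array are given for fibrillar and basement membrane genes with a mean signal of at least 500, the 3 largest differences either way and the brightest of each other class; of the other lists, the 3 smallest p. Members and lists were chosen with earlier results of these data known. Background is the highest value (69.8) of 27 Bacillus control probe sets.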

Additional observations from a re-analysis of the deposited data

How the results depend on the processing

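The count of collagens past the threshold was 0 higher and 0 lower under each alternative run: the replicate block of littermate pairs, pseudocounts of 1 and 64, no filter, a filter at the 60th percentile, quantile normalisation, no intensity trend, the mean of a gene's probe sets, the Actb 3' to 5' ratio as a covariate, and each array or pair left out. The counts of the 5 other lists were 0 in all of them too. With the replicate block the median collagen difference was the same, 0.10 on the log2 scale. That was fixed by the design, because each pair held both genotypes and the block leaves every difference as it is. Leaving out arrays or pairs gave medians from -0.014 (without Trex1 WT A) to 0.10, and the other alternatives from 0.03 (mean of probe sets) to 0.11 (Actb ratio). The fits with no filter, the filter at the 60th percentile or no intensity trend also leave the difference of each gene as it is. In those and with the replicate block no sign could change. Counting them, single gene differences changed sign in 44 of 474 recalculations, none past the threshold. They were, with the Actb ratio, Col4a2 (-0.013), Col1a1 (-0.14), Col5a1 (0.057), Col5a3 (0.00067), Col14a1 (-0.27), Col20a1 (-0.20) and Col8a1 (0.25), with the mean of probe sets Col4a3 (0.24), Col5a1 (0.070) and Col5a3 (0.11), and with quantile normalisation Col27a1 (-0.0023). Where leaving out an array or a pair changed a sign, the range was -0.016 to 0.12 for Col4a2, -0.20 to 0.52 for Col4a6, -0.74 to 0.12 for Col11a2, -0.020 to 0.068 for Col27a1, -0.018 to 0.23 for Col3a1, -0.086 to 0.031 for Col5a1, -0.091 to 0.0043 for Col5a3, -0.26 to 0.31 for Col14a1, -0.21 to 0.42 for Col16a1, -0.84 to 0.33 for Col22a1, -0.014 to 0.45 for Col7a1, -0.037 to 0.10 for Col6a1, -0.012 to 0.21 for Col6a2, -0.074 to 0.090 for Col6a3, -0.26 to 0.13 for Col8a1 and -0.075 to 0.94 for Col23a1. Leaving out an array or pair moved 9 others by over 1.5 times with no change of sign, within 0.096 to 1.34 for Col12a1, -0.61 to -0.19 for Col18a1, 0.20 to 0.48 for Col1a1, 0.15 to 0.30 for Col1a2, 0.015 to 0.73 for Col20a1, 0.096 to 0.32 for Col4a1, -0.50 to -0.22 for Col4a3, 0.21 to 0.53 for Col4a4 and 0.035 to 0.21 for Col5a2. The cause was not tested. Over all genes tested, calls were 40 higher and 5 lower, 68 and 12 with the replicate block, 11 and 0 with the Actb ratio, 16 and 2 with no intensity trend, 41 and 12 with the mean of probe sets, and between 16 and 55 higher and between 0 and 8 lower when an array or pair was left out. Dim genes have the widest intervals, so that a 2-fold change of Col12a1 or Col23a1 would lie within their error.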

Other observations

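The order of the litters recurred among collagens, an observation made after the values were seen and given without a test. In 11 of 27 tested collagens (40.7%) both mice of pair A had the lowest signal of their genotype, beside 14.3% of all 12808 genes. These were Col1a1, Col1a2 and Col3a1 of the interstitial fibrils, Col5a1, the type VI chains Col6a1, Col6a2 and Col6a3, Col4a1 and Col4a2 of the basement membrane, and Col7a1 and Col23a1. The order was not particular to collagens. Genes that fold, cut and crosslink collagen also showed it, among them P4hb, Ppib, Plod3, Pcolce and Bmp1, while Lox and Loxl1 did not. The share in that list was not counted. In 1 collagen, Col4a5, pair A was the highest in both genotypes (3.7%, beside 12.3% of all genes). Pair B was the highest in both for 7 collagens (25.9%, beside 16.3% of all genes) and pair C for 4 (14.8%, beside 16%). The lowest in both were pair B for 1, Col11a2 (3.7%, beside 15.9%), and pair C for 5 (18.5%, beside 14.8%).

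Of 15 collagens with several tested probe sets, 9 had differences of both signs: Col1a1, Col4a3, Col4a4, Col5a1, Col6a2, Col8a1, Col14a1, Col18a1 and Col20a1. The share among all genes with several tested probe sets was not counted. Some of the opposite signs lay close to 0, as in Col4a4 (-0.0034) and Col8a1 (0.00014), and others did not, as in Col4a3 (-0.37 and 0.85). In Col4a1 and Col3a1 the probe sets had like differences, of 0.24 and 0.26 and of 0.11 and 0.14. Which transcripts each probe set reads was not analysed here.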
